A study of Mus musculus with 7 samples.

Results

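Metallothioneins are small, cysteine-rich proteins that bind zinc, copper and cadmium ions, and they are described here with MTF1, the zinc-finger transcription factor that senses zinc and switches their genes on. The members Mt1, Mt2, Mt3 and Mtf1 were chosen with earlier results of these data known, and were taken by gene symbol. They were read from 6 probe sets (Mt1 2, Mt2 1, Mt3 1 and Mtf1 2) among 20380 probe sets that the array annotation gives to a single symbol, so 4 of 12393 genes. Of these, Mt1, Mt2 and Mtf1 were bright enough to be among the 8019 genes tested, and Mt3 was not. RNA came from whole mouse embryos (strain C57BL/6, mixed sex, embryonic day 9) freed of yolk sac and amnion, and each Affymetrix Murine Genome 430A array received the RNA of 2 littermates of the same genotype.

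The 7 arrays comprised 2 of Adnp knockout embryos (Adnp -/-), 3 of heterozygous embryos (Adnp +/-) and 2 of wild-type embryos (Adnp +/+). Adnp encodes a homeodomain and zinc-finger protein, and the study asked which genes depend on it at a stage when embryos without it develop abnormally before they are resorbed. The knockout is in the whole embryo, and genotypes were typed from yolk sac DNA by a polymerase chain reaction for Adnp and the neomycin resistance gene. Each pool held its own embryos, the division of litters over pools was not stated in the labels, and with 2 or 3 arrays a genotype all errors are wide.

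Mt1 and Mt2 are made in most tissues, are rich in visceral endoderm and liver, and rise with zinc, cadmium, glucocorticoids and several kinds of stress. Mt3 is known mainly from the brain, and Mt4, the fourth mouse gene of the family, from stratified epithelia. Zinc-loaded MTF1 binds metal response elements, short sequences with the core TGCACNC or TGCGCNC, in the promoters of Mt1, Mt2 and Slc30a1, a zinc exporter.

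The promoter windows of the 3 metallothionein members are shown to describe their sequence, and any link of the windows to the signals was not tested. They run from 250 bases before to 50 bases after a gene start annotated by RefSeq (GRCm38.p6, chromosome 8, plus strand for all), and capitals mark each match to the metal response core on either strand. The windows lie at chr8:94178839-94179138 for Mt1, chr8:94172368-94172667 for Mt2 and chr8:94152357-94152656 for Mt3.
Mt1: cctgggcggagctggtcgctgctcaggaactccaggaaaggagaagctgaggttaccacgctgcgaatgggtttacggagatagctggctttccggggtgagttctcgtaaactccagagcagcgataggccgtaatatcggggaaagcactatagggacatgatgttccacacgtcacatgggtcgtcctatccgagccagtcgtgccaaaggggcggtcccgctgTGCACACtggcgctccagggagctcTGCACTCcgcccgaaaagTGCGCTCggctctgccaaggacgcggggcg
Mt2: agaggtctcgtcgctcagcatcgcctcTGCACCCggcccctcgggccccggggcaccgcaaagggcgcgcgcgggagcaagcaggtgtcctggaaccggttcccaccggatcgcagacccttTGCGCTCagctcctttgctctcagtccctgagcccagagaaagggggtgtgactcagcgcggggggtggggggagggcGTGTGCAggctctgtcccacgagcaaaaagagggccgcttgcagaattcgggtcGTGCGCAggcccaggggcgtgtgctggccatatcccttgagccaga
Mt3: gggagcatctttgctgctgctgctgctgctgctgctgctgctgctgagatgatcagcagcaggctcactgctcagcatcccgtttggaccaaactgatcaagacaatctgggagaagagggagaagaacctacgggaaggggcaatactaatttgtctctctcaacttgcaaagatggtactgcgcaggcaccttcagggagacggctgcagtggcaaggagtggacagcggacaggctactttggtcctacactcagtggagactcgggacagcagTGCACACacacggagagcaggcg

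The Mt1 window held 3 separate matches, all on the printed strand, the first from 23 to 17 bases before the annotated start and the others within the bases after it. Which start embryos use was not measured, and the count and positions hold for this window only. The Mt2 window held 4, of which 2 lay on the opposite strand (printed as GTGTGCA and GTGCGCA). The Mt3 window held 1, after the start. Over all 32841 promoter windows of this length, 25.7% held at least 1 match, 1.31% at least 3 and 0.295% at least 4. The window of Slc30a1 held 2, that of Mtf1 (chromosome 4) held 0, and both windows of Slc39a10, a zinc importer, held 0. Such matches describe letters in these windows and are not measured binding.

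Mt1 and Mt2 were high on both knockout arrays and alike on the 5 others. Mt1, read from its brighter probe set (1422557_s_at), had signals of 1014.5 and 871.6 in knockout pools, 134.5, 179.4 and 213 in heterozygous pools, and 158.6 and 164.5 in wild-type pools. The lower knockout array thus lay above the highest of the other arrays, and the heterozygous range enclosed both wild-type values. The share of all genes whose arrays separate in this way is not given here, so the separation alone is no sign of a change. Group means were 943.1 ± 101 in the knockout (SD, n = 2), 175.6 ± 39.4 in heterozygotes (n = 3) and 161.6 ± 4.17 in wild type (n = 2).

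Log2 differences here are taken on log2(signal + 3.8), a pseudocount that understates changes of dim genes, and tested with limma with Benjamini-Hochberg adjustment over the 8019 genes at a threshold of 0.05. Mt1 rose in the knockout by 2.51 against wild type (SE 0.19, 95% interval 2.09 to 2.94, adjusted p = 0.000168), a 5.71-fold rise. Against heterozygotes the rise was 2.42 (SE 0.18, adjusted p = 9.72e-05). These comparisons share the knockout arrays. Mt1 stood 5th of 8019 genes by p and 21st by the size of the rise against wild type.

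Mt2 behaved in the same way. Its signals were 1182 and 1159.6 in knockout pools, 205.8, 268.5 and 365 in heterozygous pools, and 251.1 and 336.2 in wild-type pools. Again the knockout arrays did not overlap with the others, while the heterozygous and wild-type arrays did overlap. The limit given for the separation of Mt1 holds here too. Means were 1170.8 ± 15.8 in the knockout (SD, n = 2), 279.8 ± 80.2 in heterozygotes (n = 3) and 293.7 ± 60.2 in wild type (n = 2). Mt2 rose by 2.0 against wild type (SE 0.23, 95% interval 1.49 to 2.5, limma, adjusted p = 0.00193), which is 3.99-fold, and by 2.09 against heterozygotes (SE 0.21, adjusted p = 0.000577). It stood 20th of 8019 by p and 28th by size against wild type.

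On each array the signals could also be placed among all probe sets. Mt1 lay at the 96th and 95.3rd percentile on the knockout arrays, against the 68.5th to 78.4th on the heterozygous and the 72.6th and 73.1st on the wild-type arrays. Mt2 lay at the 96.7th percentile on both knockout arrays, the 77.4th to 87.3rd on heterozygous and the 81.4th and 86.1st on wild-type arrays. Both transcripts were therefore well above the middle of the array in every genotype, and near its top in the knockout.

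Of the 3 members tested, 2 rose against wild type and 0 fell, where 1.96% of all genes tested rose and 1.36% fell (3.32% changed either way). Since the members were chosen with earlier results of these data known, their count is not independent evidence. Against heterozygotes the same 2 of 3 rose, beside 3.11% of all genes (2.76% fell and 5.86% changed either way). Between heterozygous and wild-type embryos 0 of 3 passed, and 0% of all 8019 genes did (limma, 284 at an unadjusted p under 0.05).

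**Figure D1:**
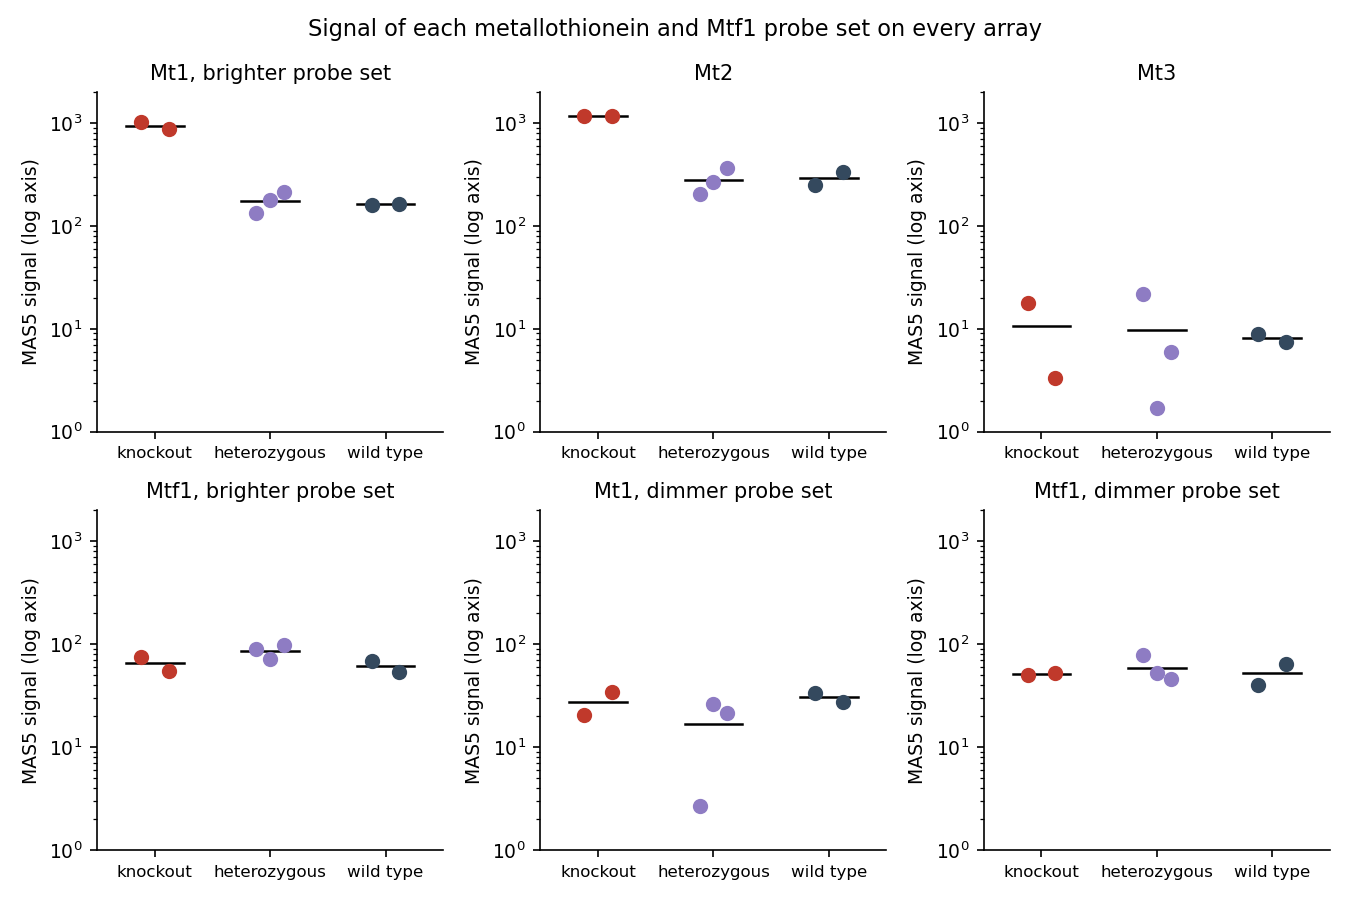
MAS5 signal (log axis) of the 6 probe sets of Mt1, Mt2, Mt3 and Mtf1 on each array, with knockout, heterozygous and wild-type pools from left to right. Points are arrays and bars are group means. Mt1 (brighter probe set) and Mt2 are above all other arrays on both knockout arrays, while the other 4 probe sets overlap between knockout and wild type. The share of all genes that separate like Mt1 and Mt2 is not given.

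Loss of a single Adnp copy left no change of Mt1 or Mt2 that passed the test. Heterozygous minus wild type was 0.09 for Mt1 (95% interval -0.30 to 0.48, limma, adjusted p = 0.999) and -0.09 for Mt2 (95% interval -0.56 to 0.37, adjusted p = 0.999). As folds, the intervals reached from 0.815 to 1.4 for Mt1 and from 0.68 to 1.29 for Mt2. Rises of the size seen in the knockout lay outside these intervals.

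Mt3, the metallothionein of the brain, was dim on every array. It had 17.9 and 3.3 in knockout pools, 21.7, 1.7 and 5.9 in heterozygous pools, and 8.9 and 7.5 in wild-type pools. These values overlap in all directions and lie at or below the 30.9th percentile of their arrays, too low for the brightness limit of the test. In a fit with no such limit (12393 genes) the knockout differed from wild type by 0.05 (95% interval -1.59 to 1.69, limma, adjusted p = 0.987) and from heterozygotes by 0.16 (adjusted p = 0.932). Such an interval is too wide to show whether Mt3 moved. Mt4 was at 1.6 and 7.1 in knockout pools, from 1.6 to 8.1 in heterozygous and at 3.0 and 8.9 in wild-type pools, near the pseudocount throughout.

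Mtf1, the zinc sensor, was of middling brightness and did not follow Mt1 and Mt2. Its brighter probe set read 76 and 54.6 in knockout pools, 89.8, 72.3 and 97.7 in heterozygous pools, and 69.4 and 54.2 in wild-type pools. Knockout and wild type overlapped, and the heterozygous pools lay above wild type without overlap. The share of all genes whose few pools separate in this way is not given here, so the separation alone is no sign of a change. The knockout minus wild-type difference was 0.07 (SE 0.23, 95% interval -0.45 to 0.59, limma, adjusted p = 0.917). Against heterozygotes the knockout stood at -0.39 (95% interval -0.87 to 0.08, adjusted p = 0.308), and heterozygous minus wild type was 0.46 (95% interval -0.01 to 0.94, adjusted p = 0.999), neither past the threshold.

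The dimmer probe set of Mtf1 gave 50.4 and 52.7 in knockout pools, 78.8, 52.3 and 46.2 in heterozygous pools, and 40.5 and 63.9 in wild-type pools. It overlapped between all genotypes, with a knockout minus wild-type difference of 0.02 in a fit of all 20380 probe sets (95% interval -0.71 to 0.74, limma, adjusted p = 0.992). Heterozygotes were above wild type by 0.17 there (adjusted p = 0.999). The separation of the heterozygous pools seen with the brighter probe set was thus absent from the dimmer one.

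**Figure D2:**
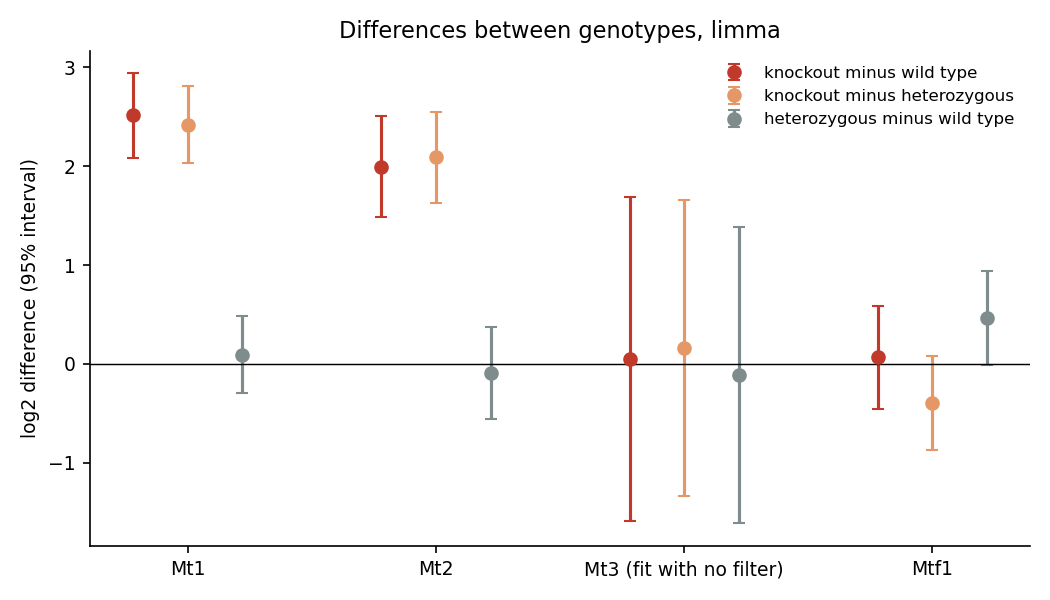
Log2 differences with 95% intervals from limma for knockout minus wild type, knockout minus heterozygous and heterozygous minus wild type (left to right within each gene). Intervals of Mt1 and Mt2 lie above 0 in both knockout comparisons, and those of Mt3 and Mtf1 include 0.

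The probe sets of Mt1 disagreed. The dimmer one (1451612_at) read 20.8 and 34.2 in knockout pools, 2.7, 26.1 and 21.5 in heterozygous pools, and 33.8 and 27.8 in wild-type pools. All genotypes overlapped at a level far under that of the brighter probe set, and knockout minus wild type was -0.17 (95% interval -1.72 to 1.38, limma, adjusted p = 0.949). With the probe sets averaged, the Mt1 difference was 1.17 and did not pass (adjusted p = 0.130), although it passed against heterozygotes (1.63, adjusted p = 0.0284). The rise of Mt1 therefore rests on a single probe set, whose suffix _s_at marks, in the maker's naming, probes that may match more than one transcript. How far other metallothionein messages share its signal was not tested.

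On these probe sets the rise was somewhat larger for Mt1 than for Mt2. The log2 signal of Mt1 minus that of Mt2 was -0.22 and -0.41 on the knockout arrays, -0.60, -0.57 and -0.77 on heterozygous arrays, and -0.65 and -1.01 on wild-type arrays. The knockout arrays were above the 5 others by 0.41 (means -0.32 ± 0.13 and -0.72 ± 0.18, SD), with an exact two-sided permutation p of 0.0476, the smallest that 21 arrangements can give. With a pseudocount of 16 or quantile normalization the exact permutation p was 0.0952, and averaging the Mt1 probe sets turned the difference round (-0.60, exact p = 0.143).

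Mt1 and Mt2 were each other's nearest profile. After each gene was centred on its mean over the 7 arrays, the root mean square difference between them was 0.23 log2 units, the smallest among 8018 other genes from either side. Next to Mt1 came Tcfl5, a testis transcription factor (0.27), Slc7a9, a transporter of cystine and basic amino acids (0.29), Lgals2, a galectin (0.32), and Ctsc, the lysosomal protease cathepsin C (0.32). Next to Mt2 came Ier3, an immediate early gene (0.29), Ddit4, an inhibitor of mTOR signalling (0.30), Emb, the adhesion protein embigin (0.32), and Ctsc (0.34). All 7 genes beside the pair rose against wild type, by 1.47 (Ier3) to 2.67 (Tcfl5), as the likeness itself asks. The call of Ier3 (limma, adjusted p = 0.00848) was lost without knockout replicate 1, knockout replicate 2 or wild-type replicate 2 (up to 0.0957). The ranking rests on 7 arrays, of which 2 are high.

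The metallothionein genes sit in a cluster on chromosome 8 in the order Mt4, Mt3, Mt2, Mt1, with Bbs2 next to Mt4 and Nup93 next to Mt1. Among the 5 nearest protein-coding genes on each side, taken by position, 3 were tested. Nup93, a nuclear pore protein, differed between knockout and wild type by -0.07 (SE 0.13, limma, adjusted p = 0.828), Nudt21, an mRNA processing factor, by 0.16 (SE 0.11, adjusted p = 0.496) and Herpud1, an endoplasmic reticulum stress protein, by -0.53 (SE 0.39, adjusted p = 0.509). None of these neighbours passed, and against heterozygotes their differences were from -0.20 to 0.11.

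Zinc transporters were read next, since zinc is the signal that MTF1 senses. Of 7 measured zinc exporters (Slc30a genes, which carry zinc out of the cytosol) 0 passed in either direction against wild type, with a median log2 difference of 0.22 beside -0.01 for all genes tested. Over all genes tested 1.96% rose and 1.36% fell, so a list of this size can show little by its count. Slc30a1, the exporter regulated by MTF1, had 60.1 and 62.7 in knockout pools, 45.7, 29.2 and 41.1 in heterozygous pools, and 30.3 and 46.8 in wild-type pools. Both knockout arrays were above all others, a separation whose share over all genes is not given and which alone is no sign of a change. The difference of 0.65 did not pass (SE 0.29, limma, adjusted p = 0.254), nor did that against heterozygotes (0.64, adjusted p = 0.181).

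Of 10 measured zinc importers (Slc39a genes) 1 rose, 0 fell and 9 did not pass, with a median of -0.10. Here too the shares over all genes were 1.96% risen and 1.36% fallen. Slc39a4, an importer at the absorptive surface of intestine and visceral yolk sac, had 93.4 and 104.7 in knockout pools, 21.8, 29.9 and 30.9 in heterozygous pools, and 40.5 and 21.4 in wild-type pools. It rose by 1.62 (SE 0.31, limma, adjusted p = 0.0215), but not without knockout replicate 1, knockout replicate 2 or wild-type replicate 2 (adjusted p up to 0.174) or with no filter on dim genes (0.0586), and by 1.73 against heterozygotes (adjusted p = 0.00811). Slc39a4 reached the brightness limit of 38.1 (signal plus pseudocount) only through the knockout arrays, the geometric mean of the others being 31.97, so its count among the genes tested is no support for a change of the list. Slc39a8, an importer of zinc and manganese, was at 220.8 and 243.4 in knockout pools, from 119.1 to 144.5 in heterozygous and at 125.8 and 166.7 in wild-type pools. Its difference of 0.66 from wild type did not pass (adjusted p = 0.0698, and 0.049 without heterozygous replicate 1), while it rose by 0.85 against heterozygotes (adjusted p = 0.0154). Without knockout replicate 1, knockout replicate 2 or heterozygous replicate 3 that last call was lost (up to 0.148), as was that of Slc39a4 without either knockout array (up to 0.101). Slc39a10, an importer that MTF1 represses, had no probe set given to its symbol alone, so its expression was not read.

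**Figure D3:**
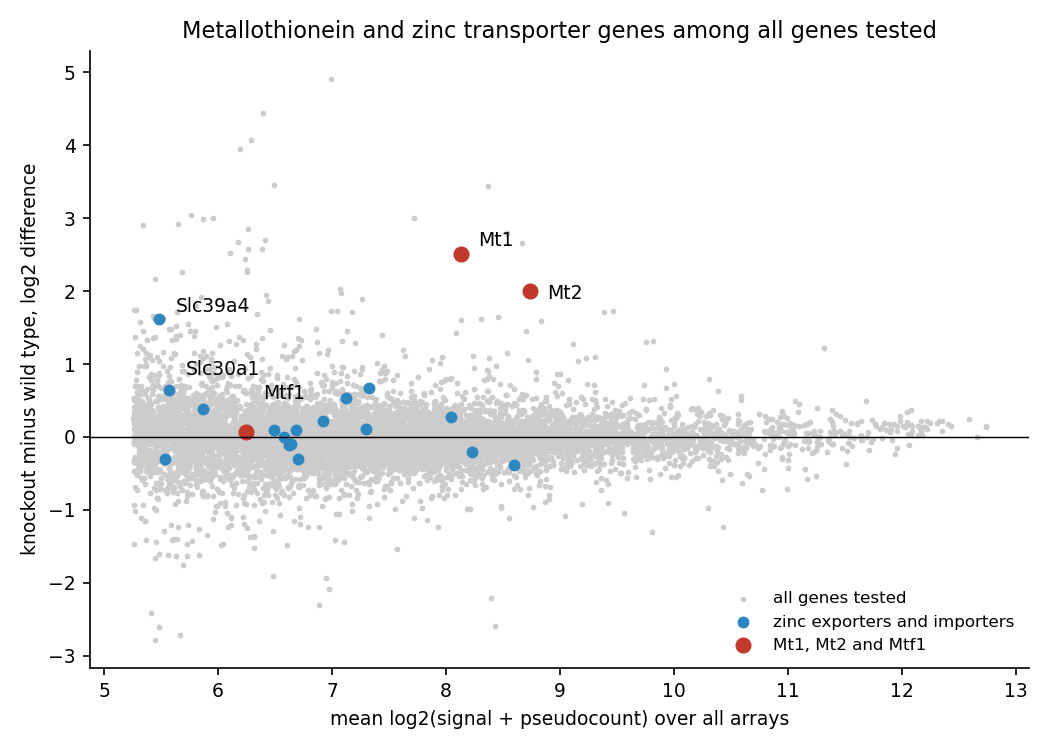
Knockout minus wild-type log2 difference of all 8019 genes tested against their mean log2 signal over all arrays. Mt1 (2.51) and Mt2 (2.0) lie far above the bulk of genes of like brightness, Mtf1 (0.07) lies within it, and Slc39a4 (1.62) lies highest among the zinc transporters.

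Genes of other metals were read in the same way, beside the 1.96% of all genes that rose and the 1.36% that fell. In the copper list 0 of 10 measured genes passed (median 0.19), among them the importer Slc31a1 (0.24, limma, adjusted p = 0.465), the pump Atp7a (0.31, adjusted p = 0.330) and the chaperone Atox1 (0.27, adjusted p = 0.223). The largest difference was that of Sco2, a copper chaperone of cytochrome oxidase (0.83, adjusted p = 0.122), which reached the brightness limit only through the knockout arrays. Lists of this size can show little against such shares. Of 11 iron genes 1 rose and 0 fell (median 0.05). This was Slc40a1, the iron exporter ferroportin, with 97.8 and 104.2 in knockout pools, from 40.3 to 51.2 in heterozygous and at 44.2 and 48.3 in wild-type pools. It rose by 1.07 (SE 0.21, limma, adjusted p = 0.0227), a call lost without either knockout or either wild-type array (up to 0.175) and with no filter (0.0606). The transferrin receptor Tfrc had a difference of -0.07 (adjusted p = 0.816).

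Other signals known to act on Mt1 and Mt2 were followed through lists of their target genes. With 1.96% of all genes tested risen and 1.36% fallen, counts near 0 in such short lists say little about these signals. Of 15 genes of the oxidant response under NRF2 and of glutathione, 0 passed against wild type (median 0.00), and Gclc, the rate-limiting enzyme of glutathione synthesis, stood at 0.05 (limma, adjusted p = 0.906). Cat, catalase, had the largest difference there (0.40, adjusted p = 0.320). Of 8 heat shock genes 0 passed (median -0.16), the largest difference being that of Hsph1 (-0.50, adjusted p = 0.168). Of 9 glucocorticoid response genes 1 rose (median 0.09): Klf9, a hormone-induced transcription factor, by 1.33 (SE 0.28, adjusted p = 0.0327), lost without either knockout array, wild-type replicate 2 or heterozygous replicate 3 (up to 0.239) and with no filter (0.0798). Klf9 too was over the brightness limit only through the knockout arrays, with 33.5 as the geometric mean of the others, and its count is no support for a change of the list. Fkbp5, a classic glucocorticoid target, stood at 0.09 (adjusted p = 0.814), and Nr3c1, the receptor itself, was under the brightness limit.

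Hypoxia genes gave the most calls among these lists. Of 14 measured, 9 rose, 0 fell and 5 did not pass, with a median of 0.80. Over all genes tested 1.96% rose and 1.36% fell. The hypoxia list was chosen with earlier results of these data known, so its count is not independent evidence. Bnip3, a mitochondrial protein, rose by 1.73 (limma, adjusted p = 8.47e-05), Ddit4 by 1.62 (0.000744), Ndrg1, a stress-induced protein, by 1.26 (0.0129) and Pfkp, a phosphofructokinase, by 1.24 (0.00555). The number risen was 5 without wild-type replicate 2 and 3 without either knockout array, Ndrg1 losing its call in all of these and Pfkp in the knockout ones. The summed signal of the list was 17869.8 and 17921 on the knockout arrays, from 10144.3 to 11924.3 on heterozygous and 12387.1 and 11079.1 on wild-type arrays, so it moved with Mt1 and Mt2, and its part in their rise was not tested.

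**Figure D4:**
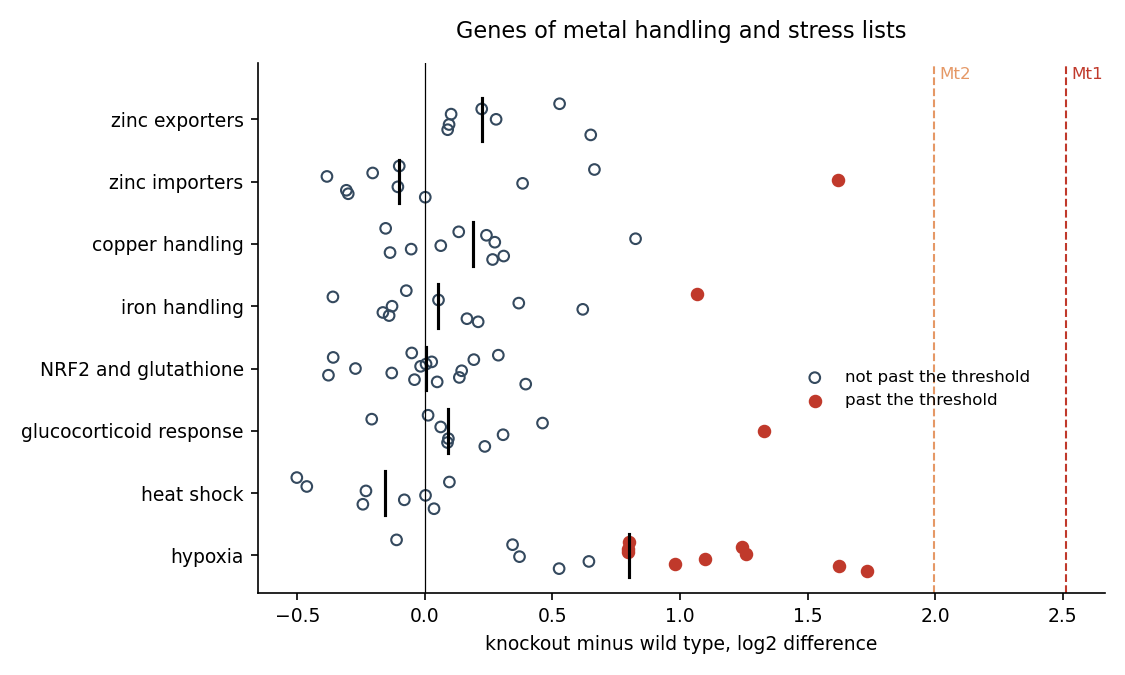
Knockout minus wild-type log2 differences of the measured genes in 8 lists around metallothionein control, with filled points for genes past the threshold and black bars for list medians. Dashed lines give Mt2 (2.0) and Mt1 (2.51). Hypoxia genes hold 9 of the 12 filled points, and no gene in these lists reaches the difference of Mt2.

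Visceral endoderm, the absorptive layer of the yolk sac, is itself rich in metallothionein, and its markers differed between the genotypes. Of 20 measured markers 11 rose, 0 fell and 9 did not pass (median 2.62), and this direction was known when the list was drawn up, so its count is not independent evidence. Over all genes tested 1.96% rose and 1.36% fell. Afp, the fetal plasma protein alpha-fetoprotein, had 1604.5 and 2025.1 in knockout pools, 131.4, 323.3 and 152.6 in heterozygous pools, and 559.7 and 140.5 in wild-type pools. The largest rises were those of Apoa1, an apolipoprotein (4.91, limma, adjusted p = 0.0171), Spink1, a trypsin inhibitor (4.45, 0.0181), Cubn, the endocytic receptor cubilin (4.08, 0.00365), and Apoe, another apolipoprotein (3.00, 0.00129). Leaving out single arrays left 7 risen markers (wild-type replicate 2), 5 (knockout replicate 1) and 2 (knockout replicate 2), with Apoa1 losing its call in all 3 cases, Spink1 without either knockout array and Cubn without knockout replicate 2. Of the 20 markers, 5 were over the brightness limit only through the knockout arrays, among them 3 of the 11 risen, Spink1, Cubn and Apob (apolipoprotein B); with no filter 8 of 22 rose. Whether a bulk signal rises through more cells of a type or more RNA per cell cannot be told apart in such samples.

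Mt1 and Mt2 were set beside these markers array by array. The summed signal of the 22 markers with a probe set was 12557.6 and 14960.1 in knockout pools, 1345.3, 2569.9 and 1649.6 in heterozygous pools, and 3788.3 and 1250.6 in wild-type pools, and no marker was at 0. Wild-type replicate 1, at 3788.3, had slightly less Mt1 (158.6 against 164.5) and less Mt2 (251.1 against 336.2) than wild-type replicate 2 at 1250.6. Heterozygous replicate 1, lowest of all 7 arrays in Mt1 and Mt2, was also lowest in the mean log2 signal of the measured markers (5.43). The heterozygous pool with the most Mt1 and Mt2 (replicate 3) was not the one with the most marker signal (replicate 2). With the mean log2 signal of the measured markers as a covariate, the knockout minus wild-type difference was 2.27 for Mt1 and 2.10 for Mt2. Neither passed (limma, adjusted p = 0.0905 and 0.185) in a fit in which 4 genes passed in all. Since this score did not overlap between knockout and the other arrays, the score and the genotype can hardly be told apart in that fit.

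**Figure D5:**
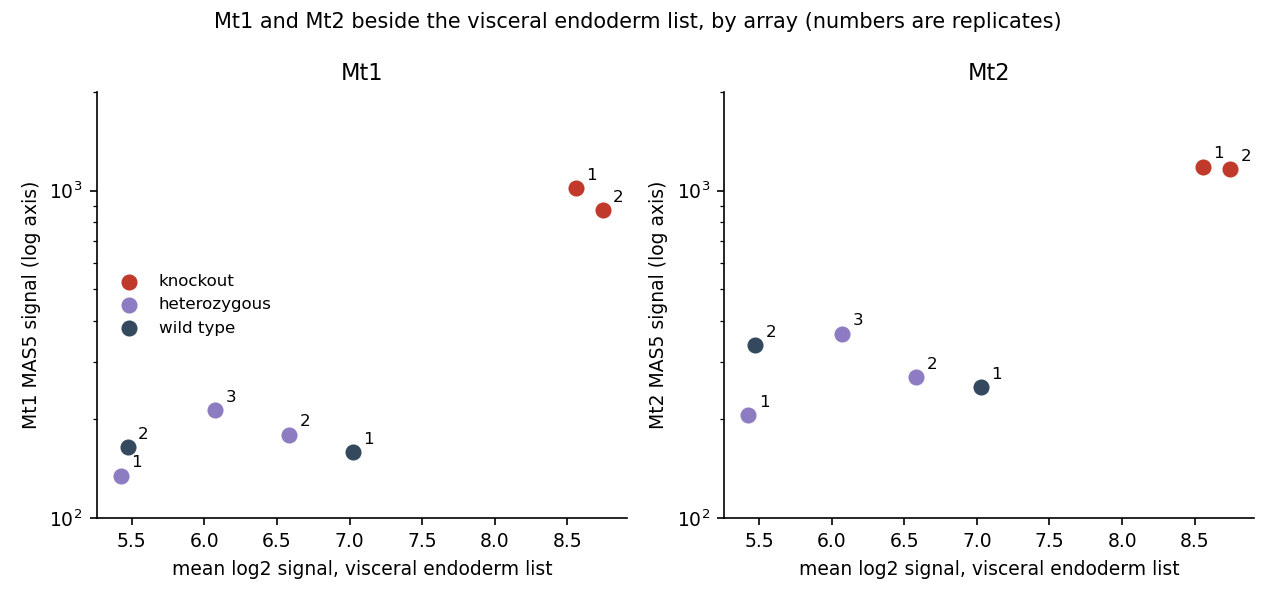
Signals of Mt1 and Mt2 (log axis) against the mean log2 signal of the 20 measured visceral endoderm markers on each of the 7 arrays, numbered by replicate. The knockout arrays are high on both axes. Among the other 5 arrays Mt1 lies between 134.5 and 213, Mt2 between 205.8 and 365, and the marker mean between 5.43 and 7.03. Marker mean and genotype can hardly be told apart on these arrays.

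Other tissues that could be carried along were read in the same way, beside the 1.96% of all genes that rose and the 1.36% that fell. Decidua, maternal tissue rich in metallothionein, showed most in 1 pool. Prl8a2, a decidual hormone, was 828.6 in heterozygous replicate 1, against 16.2 to 138.4 elsewhere. Its knockout minus wild-type difference was 1.55 and did not pass (limma, adjusted p = 0.548). The summed signal of the 10 decidua genes was 205.4 and 356.1 in knockout pools, 1073.5, 258.6 and 214.7 in heterozygous pools, and 251 and 219.2 in wild-type pools. The next highest sum was that of knockout replicate 2 (356.1). Heterozygous replicate 1 had the lowest Mt1 and Mt2 of all 7 arrays, and the part of decidua in the result was not tested. Of the 4 decidua genes tested 0 rose and 1 fell, Wnt4, a ligand also of the embryo's own tissues (-1.26, limma, adjusted p = 0.0371, lost with no filter and, up to 0.242, on leaving out knockout replicate 1, heterozygous replicate 2 or 3, or either wild-type array).

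Trophoblast (0 of 3 passed, largest difference Plac1 at 0.84, limma, adjusted p = 0.0596), primitive erythroid genes (0 of 9, largest Klf1 at -0.53, 0.375) and macrophage genes (0 of 1, Csf1r at 0.38, 0.472) gave no calls, although leaving out wild-type replicate 1 let Plet1, a trophoblast surface protein, rise (1.64, adjusted p = 0.0348). The trophoblast sum was 506.7 and 620.8 in knockout, 298.1 to 441.4 in heterozygous and 486.6 and 315.6 in wild-type pools, above the others in the knockout as well, and its part in the result was not tested. All 12 markers of the embryo proper were measured, as fits the labelled tissue, and 4 of them fell: Meox1, a somite homeobox gene (-1.23, adjusted p = 0.00622), Snai1, of migrating mesoderm (-1.23, 0.0062), Twist1, of head mesenchyme (-0.95, 0.00657), and Sox2, of neural progenitors (-0.79, 0.00641). The count of fallen markers became 1 on leaving out wild-type replicate 2, 3 on leaving out knockout replicate 1 and 0 on leaving out knockout replicate 2. With all arrays kept, 1.36% of all genes tested fell.

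Set against heterozygotes, the same lists gave 0 calls among zinc exporters (median 0.13), copper (0.11), glucocorticoid (0.03) and heat shock genes (0.10), beside -0.02 for all genes tested. Of all genes tested 3.11% rose and 2.76% fell in that comparison, so such short lists can show little by their counts. There, 1 of 15 oxidant response genes rose, the thioredoxin gene Txn1 (0.43, limma, adjusted p = 0.0227), a call lost without heterozygous replicate 3 or either knockout array (up to 0.182). Hypoxia genes rose in 11 of 14 cases, against 4 without knockout replicate 1 and 3 without knockout replicate 2. Visceral endoderm markers rose in 14 of 20, against 5 and 6 without those arrays, and 5 of the 14 had been over the brightness limit only through the knockout arrays. Between heterozygous and wild-type pools 0 genes passed in any list.

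Median signals were 55.5 to 57.4, as the scaling of the deposited values to a common mean would give, and arrays correlated with each other at 0.925 to 0.982 over genes (a description, genes being no replicates). The targeted gene could not serve as a check, because its only probe set is shared with the neighbouring gene Dpm1 and read 1880.2 and 1681.5 in knockout, 985.9 to 1195.8 in heterozygous and 897.2 and 1025.6 in wild-type pools. The pools also differed in the Y-linked gene Kdm5d (knockout minus wild type 2.91, limma, adjusted p = 0.00559). Its mean over the other arrays was under the brightness limit, through low wild-type pools. On the log2 scale it read 3.79 and 3.02 in wild-type and 5.66 to 6.56 in heterozygous pools. Knockout minus heterozygous was 0.32 (adjusted p = 0.662). Summed Y-linked signals were 144.8 and 207.5 in knockout, 97.8 to 187.5 in heterozygous and 32.9 and 21.4 in wild-type pools. Heterozygous minus wild type was 2.59 for Kdm5d and did not pass (adjusted p = 0.301). With a covariate for the Y-linked signal, Mt1 and Mt2 rose against heterozygotes (2.43 and 2.13, limma, adjusted p = 0.000257 and 0.00104). Against wild type the differences with that covariate were 2.61 and 2.38 and did not pass (adjusted p = 0.532 and 0.644), as 0 genes did. Both wild-type pools had less Y-linked signal than every other pool. Y-linked signal and genotype can therefore hardly be told apart between knockout and wild type.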

How the data were processed

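The authors used MAS5, according to the submitters' processing notes, and deposited linear intensities, 1 per probe set; neither its version nor its scaling target was stated. Trimmed means (2% off both ends) lay between 150.0 and 150.1, so changes are relative to the whole array. Groups and replicate numbers come from the sample titles. Of 22690 probe sets, 64 array controls, 691 with several symbols and 1555 unlisted ones named no gene. The pseudocount of 3.8 added before taking log2 is the 10th percentile of the deposited signals. Each gene was read from its brightest probe set, and genes under the 40th percentile of probe sets in mean log2 signal (38.1 as signal plus pseudocount) were left out. Genotypes were compared in R 4.3.3 with limma 3.58.1 (lmFit, eBayes with an intensity trend) over all 7 arrays, which left 4 residual and 6.19 prior degrees of freedom. P-values are two-sided and adjusted by Benjamini-Hochberg over all genes tested. The code was tested on simulated data. Lists are described by counts and medians, without a test of the list.

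The members, the 16 lists and the tests were chosen with earlier results of these data known. Named genes were the members, up to 4 genes past the threshold from each list or else the largest difference, the nearest profiles of Mt1 and Mt2, and Slc30a1, Slc39a10 and Nr3c1. Afp, Tfrc, Gclc, Fkbp5, Slc31a1, Atp7a and Atox1 were added for their known roles, Slc39a8, Txn1, Plet1, Apob and Prl8a2 after their values were seen, and chromosome neighbours by position. Alternatives varied the pseudocount, filter, scaling, variance trend, samples, weighting, replicate blocking, probe set and tissue or sex covariates. The labels do not say whether replicate numbers pair the pools. Sequences are from RefSeq (GRCm38.p6); probe sequences were not used here.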

Additional observations from a re-analysis of the deposited data

How the results depend on the processing

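The rises of Mt1 and Mt2 against wild type and against heterozygotes passed whichever array was left out, at 2.40 to 2.62 on the log2 scale for Mt1 and 1.79 to 2.20 for Mt2 against wild type (limma, adjusted p up to 0.00558 and 0.036), and from 2.24 to 2.57 and 1.89 to 2.30 against heterozygotes (up to 0.00504 and 0.0178). They also passed with a pseudocount of 1 or 16, with no filter or a filter at the 60th percentile, quantile normalization or median centring, no intensity trend, only the groups compared, array weights and the replicate block (adjusted p = 0.00272 and 0.00324 against wild type). They did not pass with a covariate for visceral endoderm markers (Mt1 2.27 and Mt2 2.10 against wild type, 2.15 and 2.20 against heterozygotes, adjusted p 0.0905 to 0.188) or, against wild type, with the Y-linked score (2.61 and 2.38). Mt1 was 1.17 with its probe sets averaged, and its dimmer probe set gave -0.17 against wild type, 0.85 against heterozygotes and -1.02 for heterozygous minus wild type; the cause was not tested.

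Differences of single genes that never passed changed sign under some settings. Mt1 minus Mt2, which had an exact permutation p of 0.0476 above, changed sign with probe sets averaged. Heterozygous minus wild type was -0.055 for Mt1 with the replicate block and -0.46 with probe sets averaged (range with 1 array left out -0.055 to 0.27). For Mt2 it was 0.0084 with array weights and 0.25 with the Y-linked score (-0.30 to 0.12), and for Mt3 0.015 with a pseudocount of 16 and 3.38 with the Y-linked score (-0.71 to 0.39). Mt3, knockout minus wild type, was -0.025 with a pseudocount of 1 and -0.031 with quantile normalization (-0.75 to 0.86), and against heterozygotes it ran from -0.64 to 0.97. Mtf1, knockout minus wild type, was -0.0067 with the visceral endoderm score (-0.16 to 0.29). Mt1 minus Mt2, knockout against the other arrays, was 0.37 with a pseudocount of 16, 0.41 with quantile normalization, -0.60 with probe sets averaged and 0.31 to 0.50 with 1 array left out (exact permutation p 0.0667 to 0.333, the smallest reachable being higher with fewer arrays).

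Genes past the threshold in all, 266 against wild type and 470 against heterozygotes, were 161 and 306 with no filter, 174 and 262 with no trend, 72 and 76 with the replicate block, 4 and 0 with the visceral endoderm score and 142 and 293 of all probe sets. Against wild type they were 514 with array weights and 0 with the Y-linked score. Leaving out 1 array gave 36 to 417 and 67 to 545. Between heterozygous and wild type 1 gene passed with the visceral endoderm score and 0 in every other setting, 0 with any 1 array left out. Deviations of same-numbered pools from their group means correlated, across genes, at -0.05 between knockout and wild type. Between heterozygous and wild type they correlated at -0.28 and -0.29. With 2 arrays in a group the deviations mirror each other, so differently numbered pools give the same values with the sign turned. Such values cannot show whether the pools are paired. The replicate block changed no call of a member.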
